A study of Zea mays and Oryza sativa with 119 samples.

Results

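The genes described here encode enzymes that build chlorophyll in the rice leaf. They are 10 of the 55986 features of the rice expression table, chosen by locus identifier and not by their values, and all 10 passed the filter on low expression. They are GSA (LOC_Os08g41990), CHLD (LOC_Os03g59640), CHLI (LOC_Os03g36540), CHLH (LOC_Os03g20700), CHLM (LOC_Os06g04150), DVR (LOC_Os03g22780), PORA (LOC_Os04g58200), PORB (LOC_Os10g35370), CAO1 (LOC_Os10g41780) and CHLG (LOC_Os05g28200). The names are those the selection pairs with the identifiers, since the table holds identifiers alone.

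The RNA was polyadenylated RNA from the third leaf of the rice cultivar Nipponbare, taken at 14 days. Each leaf was divided into 11 sections of 2 cm, numbered 1 to 11, and each section had 4 replicates, which gave 44 libraries. A replicate pooled the same section of 15 plants on average, so that p-values reflect the spread between pools. No treatment or genotype separates the libraries, all seedlings shared 1 regime of equal light and dark periods, and which end of the leaf section 1 lies at is not given in the labels. A section is whole leaf tissue, in which fewer cells of a type and less RNA per cell cannot be told apart.

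Chlorophyll is made in the plastid from glutamate by way of a porphyrin ring, into which magnesium chelatase inserts magnesium. A protochlorophyllide oxidoreductase then reduces the ring in a step that needs light in flowering plants, and a phytol tail is added last. Rice has a pair of these reductases, PORA and PORB, and in rice PORA is known from greening and young tissue and PORB from leaves at all ages in the light.

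Expression was given as FPKM, a fragment count scaled by the length of the transcript and the mapped total of the library, so that levels can be compared between genes. FPKM holds no read totals. Relative depth was estimated from the values above 0 of 7140 genes that were above 0 in few libraries, and ran from 0.699 to 2.01 around the median library. It varied with section, from 1.42 to 2.01 in section 1 and from 0.699 to 0.885 in section 7, so depth and section cannot be told apart in it. The sum of FPKM over all features had a mean of 512442 in section 1, of 1086740 in section 7 and of 784866 in section 11, so a change of FPKM depends on how libraries are scaled. A list of 7 photosynthesis genes was detected in every section, and took 2.24% of all FPKM in section 1, 19.3% in section 6 and 13.1% in section 11. A list of 4 genes of dividing cells summed to between 11.3 and 47.4 FPKM in section 1, to no more than 3.45 FPKM in any library of the other 10 sections, and 1 to 3 of its genes were at 0 in all 4 libraries of a section. Their part in the results was not tested, and which genes make up these and the further lists rests on general knowledge of rice locus identifiers, not checked against an annotation. By its whole profile 31 libraries matched their own section best, 12 a neighbour and 1, section 11 replicate 2, a section farther off. Sections 2 to 7 of replicate 1 each matched the next section, so results are also given without the 13 libraries that matched another section.

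By the section of their highest mean, with FPKM as deposited, the 10 transcripts fell into an early and a late group. On the FPKM scale GSA, CHLM and CHLG had their highest mean in section 2, CHLD in section 3 and PORA in section 4. CHLI, CHLH, DVR, PORB and CAO1 had theirs in section 7. The mean sum of all FPKM was also highest in section 7, at 1086740. The sections of the highest means were not worked out under other scalings, so the grouping may depend on the scaling. Within single replicates the peak lay in sections 3 to 7 for CHLI and 3 to 9 for DVR, so their place in the late group is less clear. Of the 17353 genes tested, 29.7% had their highest mean (log2 scale) in section 1 and 5.83% in section 7, and none of the 10 enzymes was highest in section 1. All 10 differed among the 11 sections (limma F-test, called where the adjusted p was under 0.05 and the section means spanned at least 1 log2 unit), against 68.7% of all genes tested. The weakest was DVR, at an adjusted p of 0.0102 with limma, which did not pass without replicate 2 (0.0604), replicate 3 (0.0616) or replicate 4 (0.0893), and whose range was 0.86 with every library rescaled to the same FPKM total. None of the 10 was at 0 in any library.

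**Figure D1:**
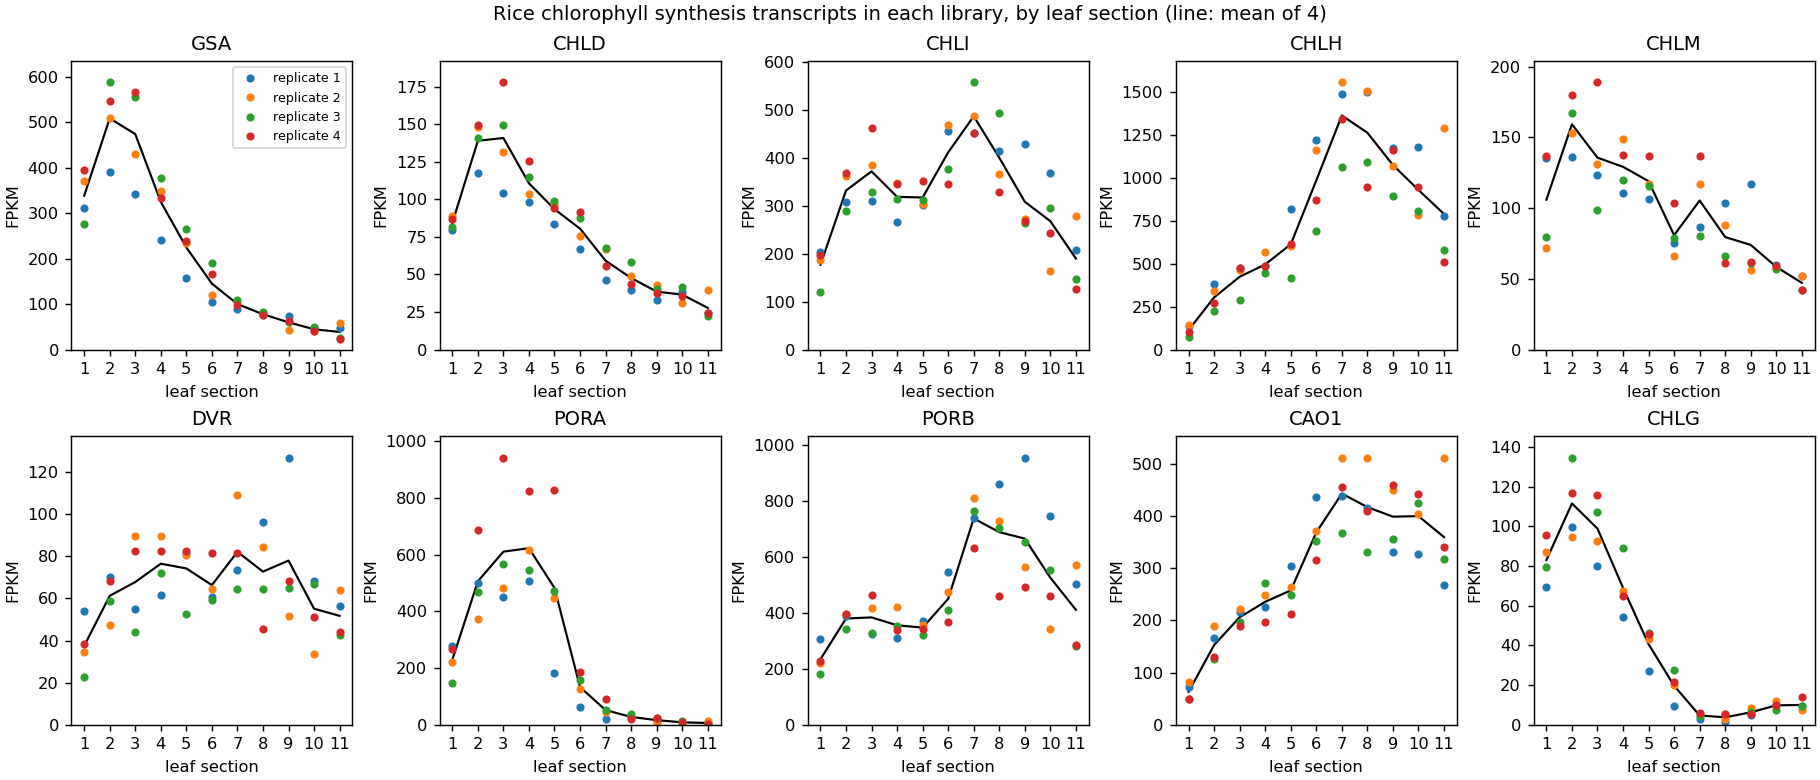
FPKM of each of the 10 enzymes in all 44 libraries against leaf section, with 1 point per library, coloured by replicate, and a line through the means of 4. PORA, GSA and CHLG stood high in sections 1 to 5 and low in sections 7 to 11, whereas CHLH, CAO1 and PORB had their highest means in section 7.

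The ratio of the highest to the lowest section mean of FPKM set the genes apart. It was 102 for PORA, 29.8 for CHLG, 13.1 for GSA and 11.9 for CHLH. It was 7.01 for CAO1 and 5.07 for CHLD, and lay between 2.19 for DVR and 3.37 for CHLM in the remaining genes. Summed over all 10 genes the level was 1467 ± 242 FPKM in section 1, 2914 ± 520 in section 3, 2743 ± 298 in section 6, 3436 ± 283 in section 7 and 1934 ± 683 in section 11 (SD, n = 4). As a share of all FPKM the sum peaked at 0.475 ± 0.071% in section 3, and was 0.298 ± 0.059% in section 6 and 0.242 ± 0.058% in section 11. The leading transcript of the 10 was GSA in sections 1 and 2, PORA in sections 3 and 4, and CHLH from section 5 to section 11. GSA made up 23.3 ± 2.9% of the summed FPKM of the 10 genes in section 1, 5.46 ± 2.08% in section 6 and 1.97 ± 0.33% in section 11. CHLH made up 7.74 ± 1.44%, 35.6 ± 5.4% and 40.04 ± 3.52% in the same sections.

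GSA encodes glutamate-semialdehyde aminotransferase, which forms aminolevulinate, the precursor of every porphyrin of the plant. Its 4 libraries read 311, 372, 277 and 394 FPKM in section 1, 104, 119.9, 191 and 166 FPKM in section 6, and 47.1, 59.0, 25.6 and 24.2 FPKM in section 11. No library of a later one of these 3 sections reached the range of an earlier one. The mean was highest in section 2, at 508 ± 85.5 FPKM (SD, n = 4), and lower in each following section. It was 474 ± 107 in section 3, 325 ± 58.7 in section 4, 225 ± 46.5 in section 5 and 100.3 ± 8.19 in section 7, with 39.0 ± 17.0 FPKM at the end of the series. On the log2(FPKM + 1) scale GSA fell by 1.24 ± 0.22 (SE) in section 6 against section 1 (limma adjusted p = 1.02e-05) and by 1.93 ± 0.22 in section 11 against section 6 (2.29e-08). The first of these changes was -0.94 after upper quartile scaling, under the log2 limit of 1 that a call needs.

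Magnesium chelatase is built of 3 kinds of subunit, and their transcripts ran apart along the leaf. CHLH carries the porphyrin ring and the catalytic site, CHLI is the ATPase, and CHLD joins it in the motor part of the enzyme. CHLD read 79.8, 88.8, 81.3 and 87.2 FPKM in section 1, 67.2, 75.6, 87.3 and 91.8 FPKM in section 6, and 24.6, 39.8, 22.5 and 24.3 FPKM in section 11. Sections 1 and 6 overlapped, and section 11 lay below both. CHLH read 136, 144, 75.1 and 102 FPKM in section 1, 1225, 1162, 692 and 872 FPKM in section 6, and 778, 1293, 581 and 513 FPKM in section 11. Section 1 was the low group and sections 6 and 11 overlapped. CHLI read 204, 187, 119.9 and 197 FPKM in section 1, 454, 469, 376 and 345 FPKM in section 6, and 208, 279, 146 and 125 FPKM in section 11. It was thus high in the middle of the leaf, while sections 11 and 1 overlapped.

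Between these sections CHLH averaged 305 ± 68.4 FPKM in section 2, 425 ± 91.2 in section 3, 497 ± 49.7 in section 4 and 615 ± 164 in section 5 (SD, n = 4). Its mean peaked in section 7, at 1366 ± 219, and was 1265 ± 285 in section 8 and 931 ± 183 in section 10. CHLD had its highest values early, at 139 ± 14.9 in section 2 and 141 ± 30.9 in section 3, and stood at 59.2 ± 10.1 in section 7. CHLI had a first high of 371 ± 67.7 in section 3, means of 318 ± 38.1 and 317 ± 22.9 in sections 4 and 5, and a second high of 486 ± 49.7 in section 7.

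The tests followed these ranges. CHLH rose by 3.11 ± 0.25 (log2, SE) in section 6 against section 1 (limma adjusted p = 1.34e-13), and its change in section 11 against section 6 was -0.38 ± 0.25 (adjusted p = 0.285). CHLI rose by 1.23 ± 0.21 in section 6 against section 1 (6.19e-06) and fell by 1.17 ± 0.21 in section 11 against section 6 (7.27e-05). With every library rescaled to the same FPKM total, both CHLI changes missed the limits, at 0.37 (adjusted p = 0.0951) and -0.92. CHLD changed by -0.07 ± 0.16 in section 6 against section 1 (0.722), a difference that was 0.22 after upper quartile scaling and 0.01 without the 13 libraries. With equal FPKM totals it was -0.93 (limma adjusted p = 5.18e-06), still under the limit of 1 in size. CHLD fell by 1.53 ± 0.16 in section 11 against section 6 (4.06e-09).

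Within a library, subunits can be set against each other without regard to how libraries are scaled. CHLH stood at 1.36 ± 0.37 times the FPKM of CHLD in section 1, 12.8 ± 4.8 times in section 6 and 27.8 ± 5.3 times in section 11 (SD, n = 4). CHLI stood at 2.096 ± 0.454, 5.25 ± 1.45 and 6.79 ± 1.37 times CHLD in the same sections. The log2 difference between CHLH and CHLD averaged 3.57 ± 0.56 in section 6 and 0.39 ± 0.41 in section 1, higher in section 6 by 3.18 ± 0.35 (SE). It averaged 4.72 ± 0.30 in section 11, higher than in section 6 by 1.15 ± 0.32. Both had p = 0.0286 in the two-sided exact permutation test, the smallest that 4 against 4 libraries allow, and 0.0321 after adjustment over 9 such comparisons. With the replicates paired, the adjusted exact permutation p of each comparison of CHLH or CHLI with CHLD was 0.125, the smallest that 4 pairs allow, and none passed. The difference between CHLI and CHLD was higher in section 6 than in section 1 by 1.31 ± 0.26 (exact permutation p = 0.0286, adjusted 0.0321), in all 4 replicates. In section 11 against section 6 it was higher by 0.36 ± 0.25, with a range of 0.16 to 0.56 within the 4 replicates, and did not pass (exact permutation p = 0.171).

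**Figure D2:**
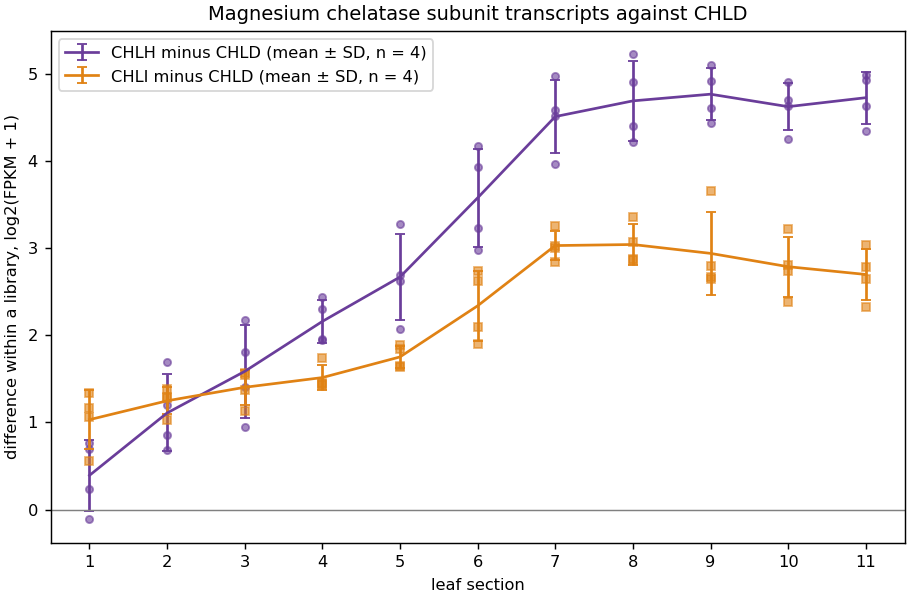
Difference on the log2(FPKM + 1) scale between CHLH and CHLD and between CHLI and CHLD within each library, against leaf section, with points for libraries and the mean ± SD of 4. The CHLH difference stood below the CHLI difference in sections 1 and 2 and above it from section 3 on, reaching a mean of 4.76 in section 9.

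CHLM encodes the methyltransferase that acts on the magnesium porphyrin next after the chelatase. It read 136, 72.2, 79.4 and 137 FPKM in section 1, 75.1, 65.9, 78.7 and 104 FPKM in section 6, and 52.4, 51.7, 42.5 and 42.4 FPKM in section 11. The mean was highest at 159 ± 19.0 FPKM in section 2 (SD, n = 4) and stood at 129 ± 17.1 in section 4 and 105 ± 26.5 in section 7. Its 4 libraries of section 11 lay below all of the other 2 sections. CHLM fell by 1.10 ± 0.22 (log2, SE) in section 11 against section 1 (limma adjusted p = 4.67e-05). That call was lost after quantile normalization (-0.999), after upper quartile scaling (-0.72) and without replicate 4 (-0.91).

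DVR encodes the divinyl reductase, which converts a vinyl side group of the ring to an ethyl group. It read 54.2, 34.6, 22.6 and 38.4 FPKM in section 1, 60.7, 64.3, 59.1 and 81.4 FPKM in section 6, and 56.2, 64.1, 42.4 and 44.2 FPKM in section 11. Means of the sections from 2 to 9 lay between 61.3 ± 10.3 and 82.2 ± 19.3 FPKM (SD, n = 4). All 4 libraries of section 6 lay above those of section 1, and section 11 overlapped both. The change in section 6 against section 1 was 0.86 ± 0.27 (log2, SE, limma adjusted p = 0.00636), under the limit of 1. It passed that limit after quantile normalization (1.04), after upper quartile scaling (1.16) and without replicate 1 (1.095). With every library rescaled to the same FPKM total it was 0.017 (limma adjusted p = 0.963). It was 0.70 without replicate 3 (0.0566) and 0.79 without replicate 4 (0.0519). Every pair of sections next to each other in the order of DVR means overlapped.

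PORA and PORB, which catalyse the same light-dependent step, started level and ended far apart. PORA read 277, 222, 148 and 269 FPKM in section 1, 63.2, 125, 158 and 184 FPKM in section 6, and 6.26, 12.6, 2.23 and 3.32 FPKM in section 11. PORB read 308, 220.4, 182 and 228 FPKM in section 1, 548, 477, 412 and 367 FPKM in section 6, and 505, 573, 283 and 285 FPKM in section 11. In section 6 every library of PORB lay above every library of PORA, and in section 1 the genes overlapped.

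PORA was highest in the sections between. It averaged 506 ± 132 FPKM in section 2, 610.4 ± 226 in section 3, 622 ± 141 in section 4 and 482 ± 264 in section 5 (SD, n = 4). Past section 6 it averaged 51.6 ± 29.8 in section 7, 27.4 ± 7.31 in section 8, 16.2 ± 8.00 in section 9, 8.34 ± 5.30 in section 10 and 6.10 ± 4.64 in section 11. Section 5 was spread most widely, with 183 FPKM in replicate 1 against 447, 472 and 826 in the other replicates, and replicate 4 was the highest library in each section from 2 to 7. The order of the section means from high to low was 4, 3, 2, 5, 1 and then 6 to 11, and in each pair next to each other in this order the libraries overlapped.

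PORB varied less. Its mean was 738 ± 75.2 FPKM in section 7, 689 ± 168 in section 8, 666 ± 205 in section 9 and 526 ± 170.5 in section 10 (SD, n = 4). In sections 2 to 5 it lay between 348 ± 22.1 and 384 ± 68.4 FPKM. Only section 1, the lowest, did not overlap the section next to it in the order of means, section 5.

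By the test of single genes, PORA fell by 4.35 ± 0.48 (log2, SE) in section 11 against section 6 (limma adjusted p = 7.33e-09), and its change in section 6 against section 1 was -0.85 ± 0.48 and did not pass (0.132). The change in section 6 against section 1 was -1.06 after quantile normalization and -1.70 with equal totals, which passed. It was smaller, and did not pass, after upper quartile scaling (-0.54), without replicate 1 (-0.42) and without the 13 libraries (-0.53). PORB changed by 0.95 ± 0.23 in section 6 against section 1 (0.000456), under the limit of 1, and by -0.19 ± 0.23 in section 11 against section 6 (0.604). The first of these passed the limit after upper quartile scaling (1.25) and without replicate 4 (1.04). The same change was 0.71 after quantile normalization and 0.09 with equal totals (limma adjusted p = 0.725), and neither passed. With equal totals the range of PORB over all sections was 0.69 on the log2 scale, too small to be called.

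The share of PORA in the sum of both transcripts is free of library scaling. It averaged 49.1 ± 4.0% in section 1, 56.5 ± 6.2% in section 2, 60.5 ± 5.9% in section 3, 63.2 ± 5.2% in section 4 and 54.7 ± 15.9% in section 5 (SD, n = 4). It then stood at 23.1 ± 9.9% in section 6, 6.65 ± 4.25% in section 7 and 1.33 ± 0.58% in section 11. PORA exceeded PORB in 2, 3, 4, 4 and 3 of the 4 libraries of sections 1 to 5, and in none of the 24 libraries of sections 6 to 11. The log2 difference of PORA and PORB averaged -1.85 ± 0.92 in section 6 and -0.05 ± 0.23 in section 1, a change of -1.79 ± 0.47 (SE). In section 11 it averaged -6.01 ± 0.44, a change of -4.16 ± 0.51 against section 6. Each change had p = 0.0286 in the two-sided exact permutation test, the smallest possible, an adjusted 0.0321 over 9 comparisons, and the same direction in 4 of 4 replicates. With the replicates paired, the adjusted exact permutation p was 0.125 for each, the smallest possible, and neither passed. Without the 13 libraries that matched another section, they were -1.38 and -4.78. The sum of both transcripts was 463 ± 107 FPKM in section 1, 995 ± 280 in section 3, 583 ± 27.9 in section 6, 790 ± 58.2 in section 7 and 418 ± 154 in section 11.

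**Figure D3:**
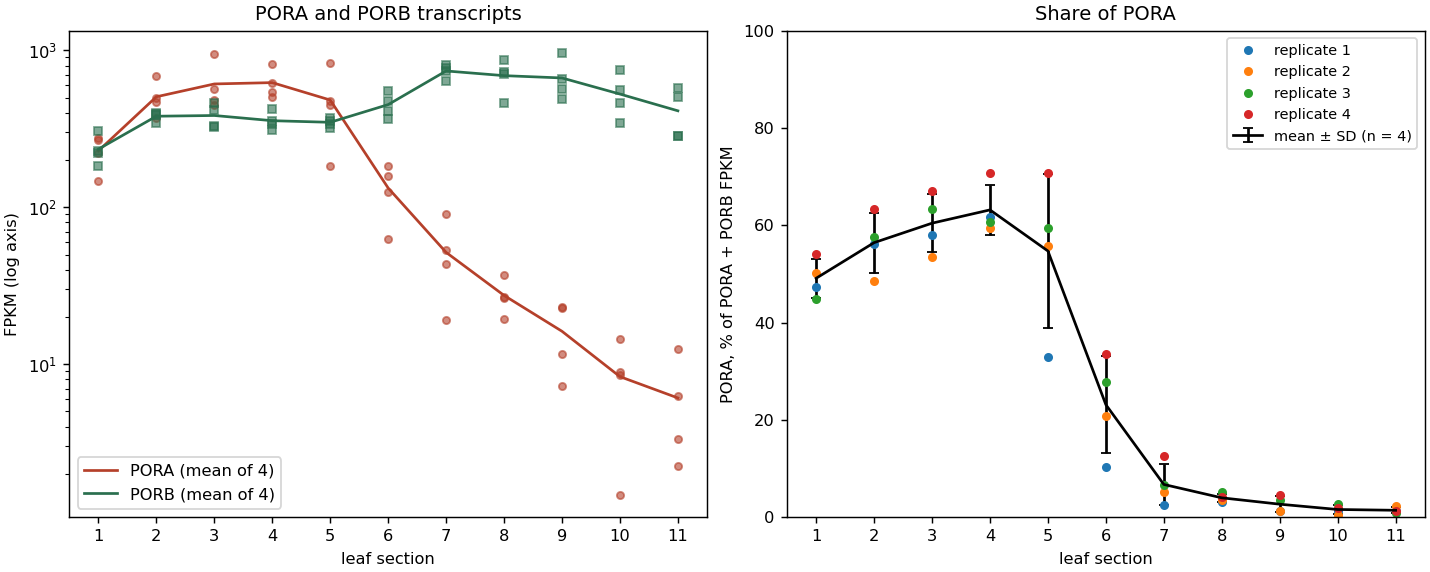
Left, FPKM of PORA and PORB in each library on a log axis against leaf section, with lines through the means of 4. Right, the share of PORA in the sum of both, by replicate with the mean ± SD, which was 63.2% in section 4, 23.1% in section 6 and 1.33% in section 11.

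CAO1 encodes chlorophyllide a oxygenase, which makes the b form of the pigment used by the antenna proteins. It read 73.0, 81.0, 49.5 and 49.1 FPKM in section 1, 436, 372, 352 and 315 FPKM in section 6, and 268, 512, 317 and 341 FPKM in section 11. Section 1 lay apart from the others, and sections 6 and 11 overlapped. The mean was 153 ± 30.5 FPKM in section 2, 206 ± 15.2 in section 3 and 257 ± 37.7 in section 5 (SD, n = 4). It was highest at 443 ± 59.8 in section 7 and lay between 359.5 ± 106 and 417 ± 73.6 in sections 8 to 11, whose libraries overlapped. CAO1 rose by 2.55 ± 0.18 (log2, SE) in section 6 against section 1 (limma adjusted p = 9.94e-15). Its change in section 11 against section 6 was -0.07 ± 0.18 (0.843), and this took the other sign after upper quartile scaling (0.01) and with equal totals (0.18). Rice has a closely similar copy of this gene, and how shared reads were divided is not given in the sources used here, so the values of CAO1 are uncertain.

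CHLG encodes chlorophyll synthase, which joins the phytol tail to the ring. It read 69.6, 86.9, 79.7 and 95.6 FPKM in section 1, 9.51, 20.3, 27.5 and 21.3 FPKM in section 6, and 9.32, 7.52, 9.20 and 13.8 FPKM in section 11. Section 1 lay above every library of the other sections named, and sections 6 and 11 overlapped at 9.51 and 13.8 FPKM. The mean was highest in section 2, at 111 ± 18.2 FPKM, and lowest in section 8, at 3.74 ± 2.04 (SD, n = 4). On the way down it averaged 69.0 ± 14.6 in section 4, 40.6 ± 9.07 in section 5, 19.6 ± 7.47 in section 6 and 4.66 ± 1.17 in section 7. It was 9.76 ± 1.83 in section 10 and 9.97 ± 2.71 in section 11. All 4 libraries of each of these last sections lay above all 4 of section 8, a difference chosen after its values were seen. CHLG fell by 2.104 ± 0.268 (log2, SE) in section 6 against section 1 (limma adjusted p = 1.54e-08), and its change in section 11 against section 6 was -0.85 ± 0.27 (0.0164), under the limit of 1. Without the 13 libraries the second change was -1.04, and without replicate 1 it was -1.13, and both passed. It was weaker without replicate 2 (-0.70, limma adjusted p = 0.163), without replicate 3 (-0.64, 0.171) and with equal totals (-0.61, 0.103). With only the 2 sections compared its limma adjusted p was 0.123.

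Counted over the set, 3 enzymes (CHLI, CHLH and CAO1) were higher in section 6 than in section 1 and 2 (GSA and CHLG) were lower. Among all tested genes 17.4% were higher and 28.4% were lower by the same limits. After quantile normalization 4 enzymes were higher and 3 lower, after upper quartile scaling 5 were higher and 1 lower, and with equal totals 2 were higher and 4 lower. The split of all 17353 genes moved as well, with 3022 higher and 4922 lower by FPKM as deposited and 3964 and 3953 after quantile normalization. It was 3635 and 4083 after upper quartile scaling, and 1779 and 7983 with equal totals. The median change of the 10 enzymes was 0.39 on the log2 scale, beside -0.22 over all tested genes.

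In section 11 against section 6 none of the 10 was higher, where 6.36% of all genes were, and 4 were lower (GSA, CHLD, CHLI and PORA), where 10.5% of all genes were. At an unadjusted p under 0.05 in the same limma fit, 6 of the 10 differed, each with a value below 0, as did 6087 of all 17353 genes in either direction. Their median change was -0.80, beside 0 over all genes. Without the 13 libraries 5 were lower, the fifth being CHLG.

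In section 11 against section 1, the ends of the series, CHLH (2.73 ± 0.25, log2, SE) and CAO1 (2.48 ± 0.18) were higher. Among all genes 17.2% were higher. GSA (-3.17), CHLD (-1.60), CHLM (-1.10), PORA (-5.20) and CHLG (-2.96) were lower, which makes 5 of 10 beside 30.6% of all genes. CHLI differed by 0.06 ± 0.21 (limma adjusted p = 0.828), with the other sign after quantile normalization (-0.0956) and with equal totals (-0.55), DVR by 0.50 ± 0.27 (0.111) and PORB by 0.76 ± 0.23 (0.00387), under the limit. The 3 comparisons share sections, so their values for a gene are not independent of each other.

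**Figure D4:**
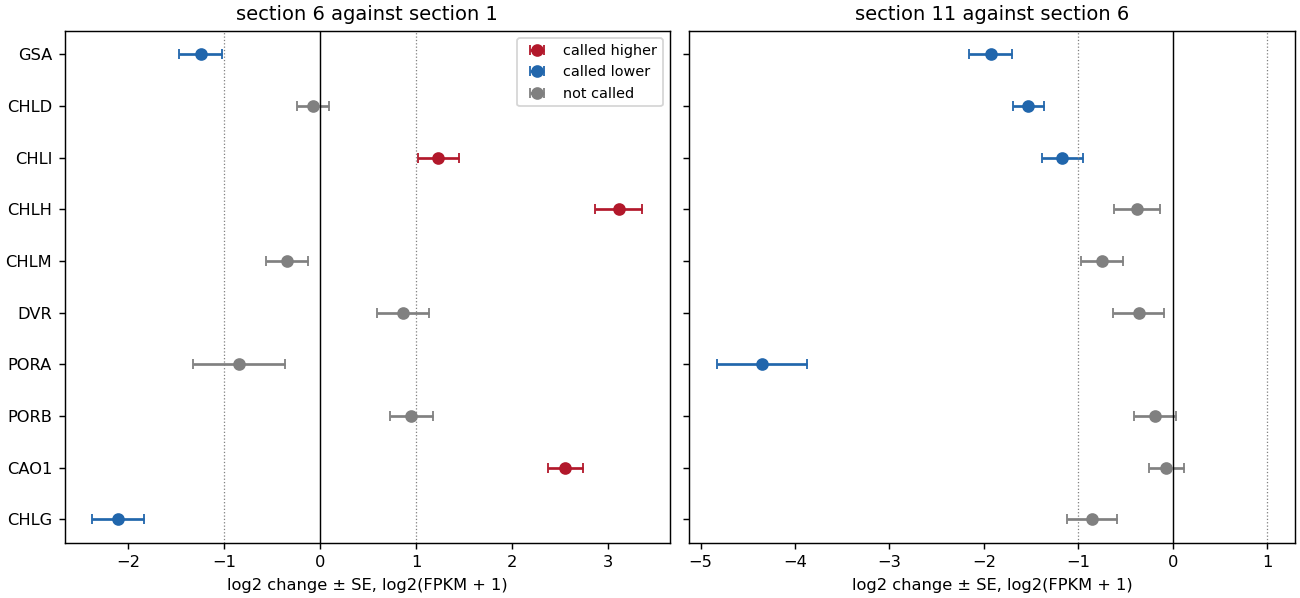
Change of each enzyme on the log2(FPKM + 1) scale with its SE, in section 6 against section 1 (left) and section 11 against section 6 (right), coloured by the call. CHLH at 3.11 lay highest and CHLG at -2.104 lowest on the left, and all 10 changes on the right were below 0 as deposited, with PORA lowest at -4.35, whereas PORB and CAO1 there were above 0 with equal totals and CAO1 also after upper quartile scaling.

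Few steps between neighbouring sections were called on their own. Over the 10 steps the 10 enzymes gave 2 higher calls and 3 lower calls in 100, where all genes gave 0.976% and 1.76%. In section 2 against section 1, CHLH rose by 1.43 ± 0.25 (log2, SE, limma adjusted p = 2.82e-05) and CAO1 by 1.28 ± 0.18 (1.38e-06), as 5.79% of all genes did. In that step the fitted changes of all 10 enzymes were above 0, between 0.42 for CHLG and 1.43 for CHLH. By the limits of a call 5.79% of all genes were higher and 9.12% lower, shares that cannot be set against a count of signs. The share of all genes with a change above 0 was not counted. The mean sum of FPKM rose as well, from 512442 in section 1 to 570421 in section 2, and its part was not tested. In section 6 against section 5, PORA fell by 1.77 ± 0.48 (0.0204) and CHLG by 1.07 ± 0.27 (0.0115), where 2.46% of all genes fell. The PORA call was lost without replicate 2 (0.0836), replicate 3 (0.0886) or replicate 4 (0.133), and held without the 13 libraries, at -1.97 (0.00438). The CHLG call was lost without replicate 1 (a log2 change of -0.95), replicate 2 (adjusted p = 0.119) or replicate 4 (0.0975) and without the 13 libraries (-0.94, 0.0579). In section 7 against section 6, CHLG fell by 1.80 ± 0.27 (0.000126), where 1.07% of all genes fell. None of the 17353 genes tested was called between sections 9 and 10 or sections 10 and 11 with limma, where 1071 and 647 genes had an unadjusted p under 0.05. By chance alone about 5% of the genes tested would have such a p.

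The shapes of the profiles were compared over the 11 section means on the log2 scale. The points are ordered pieces of the same leaves and share their libraries, and the values are a description. CHLH and CAO1 ran closest, with Pearson r = 0.990, and CHLD with PORA at 0.979, GSA with CHLD at 0.978 and GSA with PORA at 0.970 followed. The lowest values were those of CHLG with PORB and CHLH, at -0.838 for both. With the rest of the late group CHLG had -0.799 for CAO1, and only -0.303 for DVR and -0.219 for CHLI. CHLI and CHLD, partners in the chelatase motor, had r = 0.32, and CHLH and CHLD had -0.56.

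Among 10301 other genes with a mean of at least 5 FPKM, LOC_Os08g15460 (r = 0.996 over 11 sections) and LOC_Os03g55930 (0.996) were most like PORA. For CHLH they were LOC_Os02g36570 (0.998) and LOC_Os12g03070 (0.994), and for PORB LOC_Os04g38850 (0.964) and LOC_Os08g34220 (0.962). At r of at least 0.95, 414 genes resembled PORA, 440 resembled CHLH and 5 resembled PORB. The files give these identifiers without names.

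A list of 12 further genes, taken to encode other steps of the same pathway, was measured in the same fits. All 12 were tested and 10 differed among sections, beside 68.7% of all genes. In section 6 against section 1, 4 were higher and 5 lower, beside 17.4% and 28.4% of all genes, with a median change of 0.20. In section 11 against section 6, none was higher and 5 were lower by limma, beside 6.36% and 10.5% of all genes, with a median of -0.38. Their highest FPKM means fell in section 1 for 1 gene, sections 2 and 3 for 3 genes each and section 7 for 5 genes. A list of 3 genes of chlorophyll breakdown had its lowest sum in section 1, at 45.5 ± 5.0 FPKM, and its highest in section 3, at 77.6 ± 17.9, with 50.6 ± 5.0 in section 6 and 58.3 ± 6.5 in section 11 (SD, n = 4). Of these, none was called in section 6 against section 1 and 1 was lower in section 11 against section 6. In section 11 against section 1, 1 was higher and 1 lower, beside 17.2% and 30.6% of all genes. A list of 3 secondary wall genes was lower in section 6 against 1, 11 against 6 and 11 against 1, where 28.4%, 10.5% and 30.6% of all genes were lower.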

How the data were processed

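The authors deposited 1 table of FPKM values for 44 rice libraries, made with TopHat2 2.0.10 and Cuffdiff 2.1.1 per the submitters' processing notes. The rice build is not given in the sources used here, and libraries were strand-specific per the labels' protocols. All value columns were mapped to a sample, with 0 left over. The maize libraries were not used.

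The 17353 rice genes with a mean of at least 1 FPKM entered 1 limma fit (version 3.58.1, R 4.3.3, trended variance) of log2(FPKM + 1) over all 44 libraries, and p-values were adjusted by Benjamini-Hochberg over all of them. Fold changes on this scale understate those of low genes. A call needed both an adjusted p under 0.05 and a log2 change of 1 or more in size. Log2 differences between 2 genes within a library were compared by exact permutation over the 4 libraries a section. No batch is named in the labels other than the replicate number.

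The rule for named genes takes all 10 enzymes and, for PORA, PORB and CHLH, the 2 other genes most like each. The 10 enzymes and all lists were chosen with earlier results of these data known. The labels number the replicates, and by their protocols 1 number stands for 1 pool of plants. After removal of section means, libraries of the same number correlated at a median of 0.108 and others at -0.0371. The numbers were taken as pairing the libraries in the replicate block and in differences within a replicate. The main limma fit and the main exact permutation tests did not use the pairing. The limma fits were tested on simulated data. Alternatives were a pseudocount of 0.1, no filter, quantile normalization, upper quartile scaling, the replicate block, single replicates left out and fits of only the 2 sections compared. Rescaling to equal FPKM totals and leaving out the 13 libraries that matched another section were chosen after seeing the data.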

Additional observations from a re-analysis of the deposited data

Results flagged for a closer look

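In 7 of 121 groups of 4 libraries 1 value lay far from the other 3 by Dixon's ratio, where chance flags about 5% of groups. CHLD read 39.8 FPKM in section 11 replicate 2, above 22.5 to 24.6 in the other replicates, and that library matched section 9 by its whole profile. In section 9 replicate 1, CHLI read 429 FPKM, above 264 to 273, and CHLM 117 FPKM, above 56.0 to 62.1. In replicate 3, CHLH read 289 FPKM in section 3, below 464 to 474, DVR 52.4 FPKM in section 5, below 80.7 to 82.4, and PORB 342 FPKM in section 2, below 388 to 396. CHLG read 27.1 FPKM in section 5 replicate 1, below 43.4 to 46.0, a library that matched section 6.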

How the results depend on the processing

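The limma calls of the 10 enzymes were the same with a pseudocount of 0.1, with no filter on low values and with the replicate block, and in the 3 comparisons of sections 1, 6 and 11 also with only the 2 sections compared. Scaling moved the median change of all genes in section 6 against section 1, which was -0.22 as deposited, 0.10 after quantile normalization, 0 after upper quartile scaling and -0.92 with equal totals. Section 6 against section 1 then had 5 enzymes higher and 1 lower after upper quartile scaling, beside 3635 and 4083 of all 17353 genes. It had 4 enzymes lower with equal totals, beside 7983 of all genes, and equal totals gave 5 lower calls over the neighbouring steps. Values that changed sign, none of them called, were CHLD in section 6 against section 1 (0.22 after upper quartile scaling, 0.00718 without the 13 libraries), PORB in section 11 against section 6 (0.0627, equal totals) and CAO1 there (0.0125 upper quartile, 0.18 equal totals, and -0.25 to 0.14 without single replicates). In section 11 against section 1, CHLI changed sign too (-0.10 quantile, -0.55 equal totals, -0.15 without the 13 libraries, and -0.11 to 0.30 without single replicates), as did DVR (-0.10, equal totals). The cause was not tested.

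Without single replicates, 9 to 10 enzymes differed among sections. In section 6 against section 1, 3 to 4 were higher and 2 lower. In section 11 against section 6, 0 were higher and 4 to 5 lower, and in section 11 against section 1, 2 were higher and 4 to 5 lower. The steps gave 2 to 3 higher and 1 to 2 lower calls. On the log2 scale the section of the highest mean was 2 for CHLD, and 3 without replicate 1, without replicate 2 and without the 13 libraries. It moved to section 3 for PORA (without replicate 2), 8 for CHLH (without replicate 4), 8 or 9 for DVR and 8 for PORB (without the 13 libraries). Within-library differences, given in the order of section 6 against 1, 11 against 6 and 11 against 1, ranged over -2.03 to -1.41, -4.54 to -3.86 and -6.14 to -5.85 for PORA and PORB, 1.22 to 1.496, 0.29 to 0.42 and 1.52 to 1.83 for CHLI and CHLD, and 3.11 to 3.24, 0.98 to 1.28 and 4.19 to 4.403 for CHLH and CHLD. These keep 3 libraries a section and cannot pass.

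With the replicate block the same differences (-1.79, -4.16 and -5.96 for PORA and PORB, 1.31 and 1.67 for CHLI and CHLD, 3.18, 1.15 and 4.33 for CHLH and CHLD) had an adjusted exact p of 0.125, the smallest that 4 pairs allow. The block changed no other call. Without the 13 libraries the PORA and PORB difference in section 11 against section 6 (-4.78) and that of CHLH and CHLD (1.26) had 3 libraries a section left and could not pass (adjusted exact p = 0.1125 each). Depth is not recorded in FPKM, so the precision of low values, such as PORA in sections 9 to 11 and CHLG in sections 7 to 11, cannot be given.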
